A study of Mus musculus with 12 samples.

Results

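The genes described here make and export liver triglyceride. They are the 9 genes Gpam, Agpat2, Lpin1, Lpin2, Dgat1, Dgat2, Mogat1, Mttp and Tm6sf2, listed by name for their role, with no threshold on a measured value, and they were found by gene identifier among 48526 annotated genes. Of the 9, 8 were among the 11968 genes with enough counts to be tested, and Mogat1 was not. RNA was sequenced from the livers of C57BL/6J mice, an inbred strain, in 4 groups of 3 livers each: females on chow, females on chow with simvastatin, males on chow and males on chow with simvastatin. The diets were given for 4 weeks from an age of 8 to 10 weeks, and no group carried an engineered allele. Simvastatin blocks HMG-CoA reductase, the rate-limiting enzyme of cholesterol synthesis. Its dose was 0.1 g per kg of body weight by the labels. The methods relate the same dose to food weight. Whole liver was used, so fewer cells of a type and less RNA per cell cannot be told apart, and the hour of collection and the feeding state of these livers are not given in the sources used here.

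Liver cells build triglyceride on the endoplasmic reticulum from glycerol-3-phosphate and fatty acyl-CoA. An acyltransferase adds the first fatty acid, a second acyltransferase makes phosphatidic acid, a lipin removes the phosphate to leave diacylglycerol, and a diacylglycerol acyltransferase adds the last fatty acid. Monoacylglycerol acyltransferases give another route to diacylglycerol. The triglyceride is stored in droplets or is loaded onto apolipoprotein B by the microsomal transfer protein to form very low density lipoprotein (VLDL). Gpam and the lipin genes are known as targets of hormonal and feeding signals in liver, and Lpin1 protein also acts with nuclear receptors as a coactivator.

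Promoter sequences are shown for Lpin1, Gpam and Lpin2, the 3 tested members with an unadjusted p under 0.05 between statin and chow in females, since these results concern their transcripts. Each line gives the 120 bases before the most upstream start site that RefSeq lists for the gene (GRCm38.p6), read on the gene's own strand, at chr12:16610967-16611086 for Lpin1, chr19:55127239-55127358 for Gpam (both minus strand) and chr17:71183412-71183531 for Lpin2 (plus strand). Capitals mark the match to a searched motif.
Lpin1: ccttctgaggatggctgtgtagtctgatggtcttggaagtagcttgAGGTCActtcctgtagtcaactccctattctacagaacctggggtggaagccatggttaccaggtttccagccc
Gpam: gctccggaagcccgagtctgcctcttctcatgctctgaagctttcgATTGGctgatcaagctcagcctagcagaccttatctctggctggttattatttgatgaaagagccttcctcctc
Lpin2: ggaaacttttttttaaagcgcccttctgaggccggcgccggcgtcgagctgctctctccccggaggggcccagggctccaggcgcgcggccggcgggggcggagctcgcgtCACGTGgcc

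Motifs were searched on both strands of each listed promoter, from 250 bases before to 50 after the start. The Lpin1 match is the nuclear receptor half-site AGGTCA, 74 bases before the start, found in 16.3% of 32851 promoters. The Gpam match is CCAAT read from the other strand, also 74 bases before the start, and CCAAT was in 37.4% of promoters. The Lpin2 match is the E-box CACGTG, 9 bases before the start, found in 7.15% of promoters. Windows not printed here held further matches. AGGTCA was 196 bases before a downstream start of Gpam. CCAAT, read from the other strand, was 233, 165 and 57 bases before a downstream start of Lpin2, and 24 bases after the start of Mogat1. The sterol element TCACNCCAC (1.24% of promoters), the cyclic AMP element TGACGTCA (1.79%) and the D-box TTATGNAA (3.39%) were in none of the windows of the 6 members with an entry. A match is a description of these letters and not a binding site.

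Counts on genes totalled 46066381 to 60419223 per liver, and the 10 highest genes took 16.2% to 23.9% of them. Levels below are CPM, each count over the total of its liver, scaled by TMM, the trimmed mean normalization of edgeR, and a difference is called when its adjusted p from edgeR's quasi-likelihood test (Benjamini-Hochberg over all 11968 genes) is under 0.05. A floor of 3 counts corresponds to 0.0497 to 0.0651 CPM. The spread from counting was not separated from the spread between livers. The 5 hepatocyte markers were high in every group, with a summed level of 73237 to 147360. Adipocyte markers, which matter for this list because fat cells use the same enzymes, were at or near 0: none of 5 passed the filter, their summed level was 0 to 0.0538 in females and 0.164 to 2.53 in males, and each of the 5 was at 0 in at least 1 liver. The male sum was mostly Cfd, at 0.155 to 2.47.

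Gpam encodes the mitochondrial glycerol-3-phosphate acyltransferase, which adds the first fatty acid. The gene (ENSMUSG00000024978.10) lies at chr19:55067268-55127238 on the minus strand of GRCm38, with 25 exon blocks, and overlaps AC110206.1 on the other strand. In females Gpam stood at 619, 444 and 351 on chow and at 252, 338 and 170.5 on statin. All 3 statin livers were below all 3 chow livers, by a narrow margin between 338 and 351. The log2 difference was -0.89 ± 0.27 (SE; 95% interval -1.49 to -0.30), and it was not called (adjusted p = 0.241, edgeR). In males Gpam stood at 185, 208 and 239.9 on chow and at 244, 147 and 189 on statin. These groups overlapped, and the log2 difference of -0.13 (95% interval -0.72 to 0.46) was not called (adjusted p = 1.00, edgeR).

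Agpat2 encodes an enzyme of the second step, the making of phosphatidic acid. It lies at chr2:26593057-26604417 on the minus strand (ENSMUSG00000026922.13, 7 exon blocks) and overlaps Egfl7 and Gm20532 on the other strand. Its level was 154 ± 13.0 (SD, n = 3) in females on chow and 147 ± 26.4 on statin, and 177 ± 18.0 and 179 ± 12.5 in males. The livers of the diet groups overlapped in both sexes. The log2 differences were -0.07 in females (95% interval -0.40 to 0.25) and 0.02 in males (-0.31 to 0.34), and neither was called.

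Lpin1, one of the phosphatidic acid phosphatases, had the widest spread and the largest differences of the list. The gene (ENSMUSG00000020593.14) lies at chr12:16535669-16610966 on the minus strand, with 25 exon blocks and no overlapping gene. In females its level was 762, 402 and 317 on chow and 179.8, 242 and 60.4 on statin. Every female statin liver was below every female chow liver, a log2 difference of -1.62 ± 0.52 (95% interval -2.74 to -0.49). It did not pass the test across all genes (adjusted p = 0.264, edgeR). In males the order was the opposite: 59.2, 49.8 and 125 on chow and 156, 328 and 288 on statin. Every male statin liver was above every male chow liver, a log2 difference of 1.72 ± 0.52 (95% interval 0.60 to 2.85) that also was not called (adjusted p = 1.00, edgeR).

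The statin difference of Lpin1 in females minus that in males was -3.34 ± 0.73 on the log2 scale (95% interval -4.93 to -1.75), and edgeR's test of it gave an adjusted p of 0.259. The result depended on the test and on the filter: DESeq2 gave -3.36 with an adjusted p of 0.0126, and edgeR with no filter on low counts gave -3.34 with an adjusted p of 0.000437. With no filter the female difference of Lpin1 was called too (log2 -1.62, adjusted p = 0.0148, edgeR). Leaving out any 1 liver kept the interaction between -3.86 and -2.88, with adjusted p from 0.0975 to 0.704 by edgeR. Without female statin replicate 3, the female liver with the lowest Lpin1, the female difference was -1.21, and without female chow replicate 1, the highest, it was -1.14.

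Lpin2 is the other lipin gene that is abundant in liver. It lies at chr17:71182560-71249817 on the plus strand (ENSMUSG00000024052.17, 24 exon blocks), with Gm26561 overlapping on the same strand, so that reads may be split between them. In females it stood at 532, 375 and 391 on chow and at 344, 309 and 291 on statin, without overlap. The log2 difference was -0.46 ± 0.19 (95% interval -0.87 to -0.04; adjusted p = 0.412, edgeR). In males it stood at 236, 278 and 390.5 on chow and at 397, 368 and 378 on statin. Male chow replicate 3 reached the range of the statin livers, and the log2 difference was 0.34 ± 0.19 (95% interval -0.08 to 0.75; adjusted p = 1.00, edgeR). It was 0.19 without male chow replicate 1 and 0.57 without male chow replicate 3. The female difference minus the male one was -0.80 ± 0.27 (95% interval -1.38 to -0.21; adjusted p = 0.436, edgeR). As with Lpin1, the estimates pointed down in females and up in males, and none was called.

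**Figure D1:**
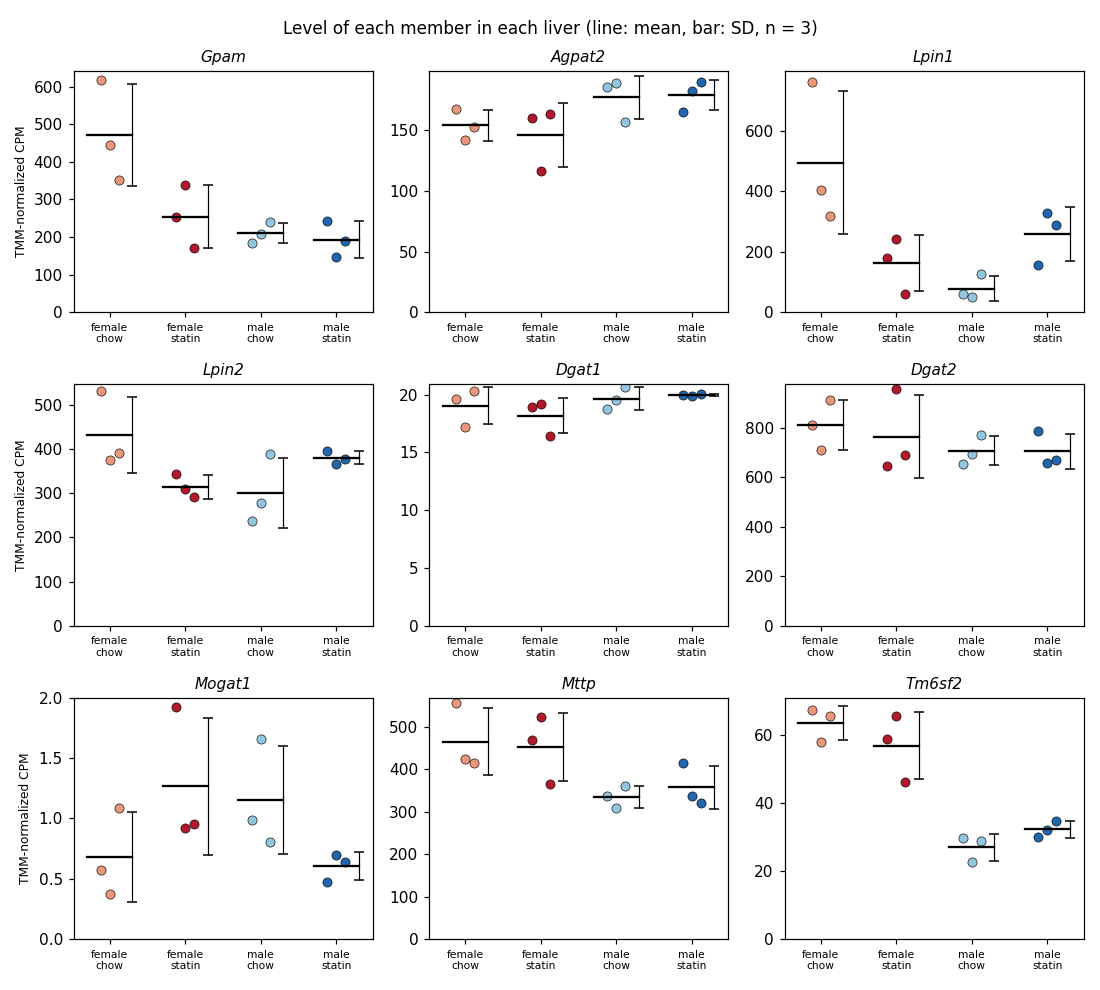
TMM-normalized CPM (y axis, linear, from 0) of each of the 9 genes in each of the 12 livers, by group on the x axis; points are livers, lines are means and bars are the SD of 3 livers. Lpin1 is separated by diet in both sexes and in opposite directions, while Agpat2, Dgat1 and Dgat2 stay within overlapping ranges between diets.

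Dgat1 and Dgat2 encode unrelated enzymes that both add the last fatty acid. Dgat1 (ENSMUSG00000022555.11, chr15:76502015-76511953, minus strand, 11 exon blocks) was the steadiest member, at 16.4 to 20.7 in all 12 livers. Its log2 difference with statin was -0.07 in females (95% interval -0.31 to 0.17) and 0.02 in males (-0.22 to 0.26). Dgat2 (ENSMUSG00000030747.5, chr7:99153658-99182719, minus strand, 11 exon blocks) was the most abundant member, at 643 to 957 across the livers. In females it stood at 809, 709 and 911 on chow and at 643, 957 and 691 on statin, so the highest and the lowest female liver were both on statin. The log2 differences were -0.08 in females (95% interval -0.46 to 0.29) and -0.01 in males (-0.38 to 0.37). No diet difference of either gene was called.

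Mogat1 encodes a monoacylglycerol acyltransferase. It lies at chr1:78510991-78538173 on the plus strand (ENSMUSG00000012187.13, 9 exon blocks) and overlaps BC035947 on the other strand. It had 30, 19 and 50 counts in females on chow, 107, 53 and 48 in females on statin, 53, 104 and 43 in males on chow, and 23, 36 and 33 in males on statin. The gene was detected in every liver but below the filter, which asks for more than 1 CPM in 6 livers. Fitted without that filter, its log2 difference was 0.90 ± 0.40 in females (adjusted p = 0.632, edgeR) and -0.94 ± 0.40 in males (adjusted p = 1.00, edgeR). The estimates of Mogat1 ran opposite to those of Lpin1 in both sexes, and the difference between the sexes, 1.84 ± 0.57, was not called either (adjusted p = 0.253, edgeR).

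Mttp encodes the large subunit of the microsomal triglyceride transfer protein, which loads lipid onto apolipoprotein B. The gene (ENSMUSG00000028158.14) lies at chr3:138089854-138144968 on the minus strand, with 22 exon blocks, and overlaps Trmt10a and Gm43691 on the other strand. It stood at 555, 424 and 414 in females on chow and at 469, 522 and 365 on statin. In males it stood at 337, 308 and 359 on chow and at 414, 337 and 319 on statin. The diet groups overlapped in both sexes, with log2 differences of -0.04 in females (95% interval -0.41 to 0.34) and 0.09 in males (-0.28 to 0.47), neither called.

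Tm6sf2 encodes a membrane protein of the secretory pathway that takes part in adding lipid to VLDL. It lies at chr8:70072924-70080066 on the plus strand (ENSMUSG00000036151.15, 10 exon blocks) with no overlapping gene. In females it stood at 67.4, 58.0 and 65.8 on chow and at 59.0, 65.6 and 46.4 on statin, overlapping ranges with a log2 difference of -0.16 (95% interval -0.49 to 0.16). It was -0.27 without female statin replicate 2 and -0.016 without female statin replicate 3. In males it stood at 29.8, 22.6 and 28.8 on chow and at 30.1, 32.0 and 34.9 on statin. The male groups did not overlap, but their gap was only from 29.8 to 30.1, and the log2 difference of 0.26 ± 0.15 (95% interval -0.07 to 0.58) was not called (adjusted p = 1.00, edgeR). It was 0.14 without male chow replicate 2.

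Counted over the list, edgeR called 0 of the 8 tested members between statin and chow in females, where 0.100% of all tested genes (12 of 11968) were called. DESeq2 called 0 members and 270 genes, and limma called 0 members and 13 genes. At an unadjusted p under 0.05 there were 3 members, Gpam, Lpin1 and Lpin2, beside 10.5% of all genes, and the same 3 had groups that did not overlap, beside 12% of all genes. All 8 female estimates were below 0, but 5 of them lay between -0.16 and -0.04, and the list's median was -0.12 beside 0.01 for all tested genes. In males edgeR called 0 members and 0% of all genes, DESeq2 called 0 members and 4 genes, and limma called 0 of either. In males 1 member, Lpin1, had an unadjusted p under 0.05, beside 1.96% of all genes. Lpin1 and Tm6sf2 had groups that did not overlap, beside 7.95% of all genes, and the list's median was 0.06 beside 0.00 for all genes.

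The comparison of the statin difference between the sexes asks whether the drug moved a gene differently in females and males. By edgeR 0 members and 0% of all genes were called. DESeq2 called 122 genes, of which 1 was a member, Lpin1, and limma called 0 genes. Lpin1 and Lpin2 had an unadjusted p under 0.05, beside 8.01% of all genes. The estimate was below 0 for all 8 tested members, with a median of -0.27 beside 0.01 for all genes. Mogat1, fitted apart, was at 1.84. Of the tested members other than the lipins, Gpam was at -0.77 (95% interval -1.60 to 0.07), and Tm6sf2 at -0.42 (-0.88 to 0.04). The estimates of Agpat2, Dgat1, Dgat2 and Mttp were between -0.13 and -0.08.

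**Figure D2:**
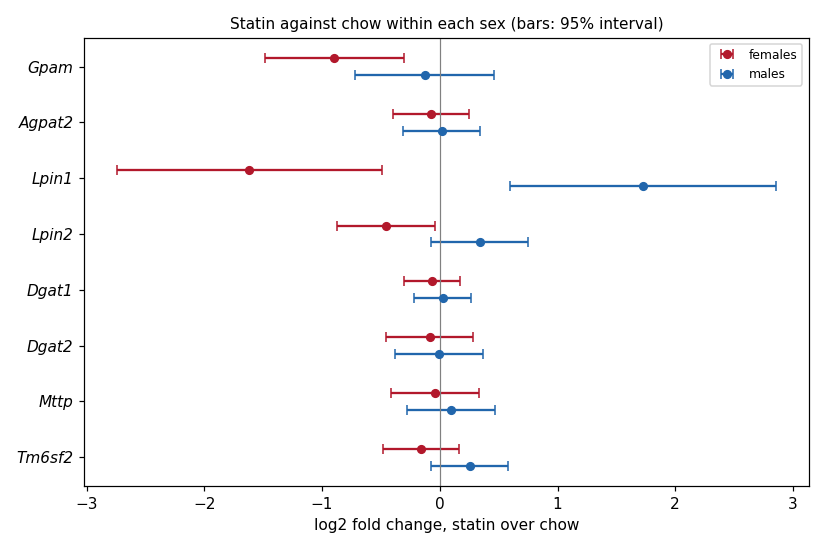
Log2 fold change of statin over chow (x axis) for the 8 tested genes in females (red) and males (blue); points are edgeR estimates and bars are 95% intervals over 3 livers per group. The intervals of Lpin1 lie on opposite sides of 0, at -1.62 in females and 1.72 in males, and none of the 16 differences was called after adjustment over all genes.

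The female estimates share 2 livers that stood at the ends of the range. Female statin replicate 3 was the lowest of the 6 female livers for 6 of the 8 tested members, and female chow replicate 1 was the highest for 6. Without female statin replicate 3 the female log2 differences were -0.66 for Gpam, -1.21 for Lpin1 and -0.39 for Lpin2, while those of Mttp and Dgat1 changed sign, to 0.11 and 0.016, and that of Tm6sf2 was -0.016 and that of Dgat2 -0.00013. Without female chow replicate 1 they were -0.64 for Gpam, -1.14 for Lpin1 and -0.27 for Lpin2. That of Mttp then changed sign, to 0.12, and that of Agpat2 was -0.0015. The directions of Gpam, Lpin1 and Lpin2 in females were kept with each liver left out in turn.

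Females and males on chow were compared to give the difference that was there without the drug. On chow, 3 of the 8 tested members were called between females and males, beside 10.4% of all genes, and in each of the 3 the female level was higher. DESeq2 called 3 members and 1946 genes, and limma called 3 members and 1311 genes. Tm6sf2 was higher in females by 1.24 ± 0.15 on the log2 scale (95% interval 0.91 to 1.57; 2.36-fold; adjusted p = 0.000325, edgeR): the lowest female chow liver, 58.0, was above the highest male one, 29.8. Lpin1 was higher by 2.66 ± 0.54 (95% interval 1.5 to 3.83; 6.34-fold; adjusted p = 0.00813, edgeR). Gpam was higher by 1.16 ± 0.27 (95% interval 0.56 to 1.76; 2.24-fold; adjusted p = 0.0193, edgeR). The calls of Tm6sf2 and Lpin1 were made with every liver left out in turn. The call of Gpam was lost without female chow replicate 1 (log2 0.91, adjusted p = 0.0816, edgeR), without male chow replicate 1 (1.07, adjusted p = 0.0839) and without male chow replicate 2 (1.15, adjusted p = 0.0640).

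Mttp and Lpin2 also had higher mean levels in females on chow without a call. For Mttp the female livers, at 414 to 555, lay above the male ones, at 308 to 359, with a log2 difference of 0.47 ± 0.17 (95% interval 0.10 to 0.85; adjusted p = 0.105, edgeR). For Lpin2 the log2 difference was 0.52 ± 0.19 (adjusted p = 0.106, edgeR), and male chow replicate 3, at 390.5, lay within the female range. Without that liver it was called, at 0.75 (adjusted p = 0.0340, edgeR). Without female chow replicate 1 the Lpin2 difference was 0.34 (adjusted p = 0.335, edgeR), and without male chow replicate 1 it was 0.37 (adjusted p = 0.343, edgeR). In total 5 members had an unadjusted p under 0.05, beside 24.9% of all genes, and 4 had groups that did not overlap, beside 37.7%. The list's median was 0.50 beside -0.01 for all genes. The log2 differences of Agpat2, Dgat1 and Dgat2 were -0.20, -0.04 and 0.20, and none was called. That of Mogat1, fitted without the filter, was -0.80 ± 0.40 (adjusted p = 0.340, edgeR).

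On statin, 1 of the 8 tested members was called between the sexes, beside 6.28% of all genes. It was Tm6sf2, higher in females by 0.82 ± 0.15 (95% interval 0.49 to 1.15; 1.76-fold; adjusted p = 0.00692, edgeR), and the call was made with every liver left out in turn. The female statin livers, at 46.4 to 65.6, were all above the male ones, at 30.1 to 34.9. Gpam differed by 0.39 (95% interval -0.20 to 0.98), and its ranges, 170.5 to 338 in females and 147 to 244 in males, overlapped. With 1 liver left out it lay between 0.12, without female statin replicate 2, and 0.62, without female statin replicate 3. Lpin1 differed by -0.68 (95% interval -1.78 to 0.42), with a lower mean in females, 161 ± 92.5, than in males, 257 ± 90.1 (SD, n = 3). Without the same 2 livers in turn Lpin1 differed by -1.11 and -0.29. Mttp differed by 0.34 (95% interval -0.03 to 0.72) and Dgat2 by 0.12 (-0.25 to 0.49). Without female statin replicate 2 Mttp differed by 0.21. At an unadjusted p under 0.05 there was 1 member, beside 19.4% of all genes. Mogat1, fitted without the filter, differed by 1.04 ± 0.40 (adjusted p = 0.196, edgeR). Besides Tm6sf2, whose female livers were higher, Agpat2, Lpin2 and Dgat1 had groups that did not overlap, with lower female levels, and these 4 stand beside 19.6% of all genes.

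**Figure D3:**
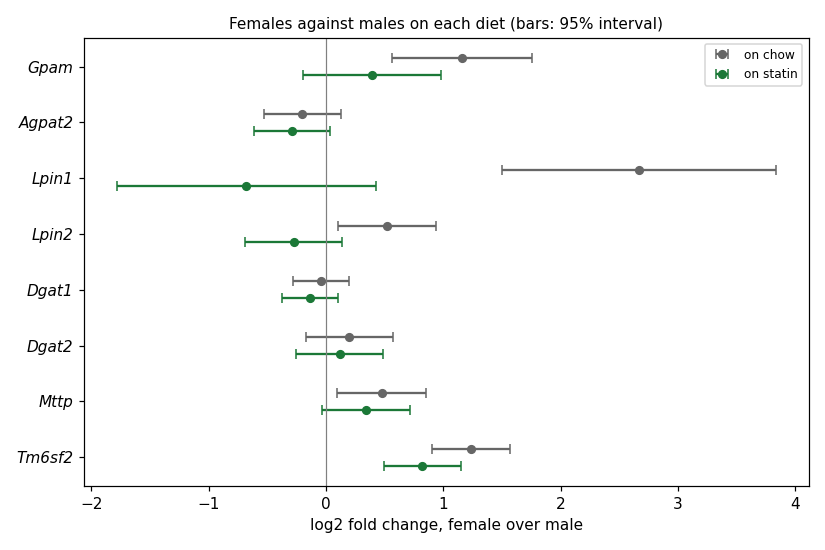
Log2 fold change of females over males (x axis) for the 8 tested genes on chow (grey) and on statin (green); points are edgeR estimates and bars are 95% intervals over 3 livers per group. Tm6sf2 is to the right of 0 on both diets, at 1.24 and 0.82, whereas Lpin1 is at 2.66 on chow and -0.68 on statin.

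The sex comparisons share livers with the statin comparisons, so the chow difference of Lpin1 and its statin differences are not separate evidence: the female chow and male chow livers enter both. Non-parenchymal markers differed between the sexes as well. The summed level of 5 Kupffer cell and macrophage markers was 275 to 339 in females on chow and 147 to 205 in males on chow, and 3 of the 5 were called higher in females. The summed level of 4 stellate cell markers was 226 to 284 against 135 to 158 on chow, with 2 called, and that of 4 endothelial markers was 179 to 186 against 111 to 148, with 1 called. On statin the macrophage sum was 261 to 412 in females and 138 to 173 in males, with 4 called, the stellate sum 180 to 227 against 143 to 158 and the endothelial sum 154 to 201 against 120 to 144, with none called in either. Of the 5 hepatocyte markers, 2 on chow (Serpina1c and Cyp2e1) and 1 on statin (Serpina1c) were called lower in females. Alb, Ttr and Hnf4a had estimates above 0 on chow (0.27, 0.05 and 0.24), none called. On statin Alb differed by 0.85 (adjusted p = 0.0582, edgeR), Ttr by 0.12, Hnf4a by -0.17 and Cyp2e1 by -0.53, none called. The hepatocyte sum on statin was 109120 to 147360 in females and 78533 to 90999 in males, and on chow the sums overlapped. Cholangiocyte and exocrine pancreas markers were low, with summed levels of 2.39 to 9.30 and 5.64 to 16.1 over all livers. The pancreas sum was nearly all Cela1, since Cpa1, Ctrb1 and Amy2a5 were at 0 to 0.0195, so it does not show pancreatic cells. Cela1, the 1 tested pancreas marker, was called lower in females on statin (log2 -0.86, adjusted p = 0.0304, edgeR). In the statin comparisons 0 tested markers of any list were called. In females all 4 stellate markers had estimates below 0 with statin (median -0.43), Des among them with an unadjusted p under 0.05, and the hepatocyte marker Cyp2e1 had statin livers above all chow livers (log2 0.72, adjusted p = 0.211, edgeR). The part of these markers in the sex differences of Tm6sf2, Lpin1 and Gpam, and in the statin differences of Gpam and Lpin1 in females, was not tested.

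How the members divide their steps can be read from levels per kilobase of exon, which allow different genes to be set side by side. Dgat2 was the highest member, at 228 to 263 in the group means, and held 97.2% to 97.7% of the summed level of Dgat1 and Dgat2. Mttp, at 53.9 to 74.8, and Agpat2, at 68.8 to 84.2, followed, and Gpam ranged from 29.0 to 70.8. Tm6sf2 was at 33.5 and 30.0 in females and 14.2 and 17.0 in males on chow and statin. Dgat1 was at 5.95 to 6.54, and Mogat1 was the lowest member, at 0.387 to 0.812.

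The lipins differed in their makeup between groups. Lpin1 made up 56.4% ± 6.85 (SD, n = 3) of the summed level per kilobase of Lpin1, Lpin2 and Lpin3 in females on chow and 35.7% ± 14.5 on statin. In males it made up 22.6% ± 5.17 on chow and 43.9% ± 10.1 on statin. The ranges did not overlap between the diets in either sex: 49.6% to 63.3% against 20.0% to 48.6% in females, and 17.4% to 27.7% against 32.4% to 51.4% in males. Lpin2 thus held the larger mean share in every group but females on chow, and Lpin3 held 2.01% to 5.07%. The summed lipin level was 88.2 ± 31.8, 43.7 ± 11, 34.4 ± 10.6 and 59.4 ± 8.52 in females on chow, females on statin, males on chow and males on statin. These shares restate the levels above and were not tested.

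For the first acylation, Gpam made up 73.7% ± 7.59 of the summed level of Gpam, Gpat2, Gpat3 and Gpat4 in females on chow and 58.0% ± 8.0 on statin, and 52.0% ± 3.79 and 47.9% ± 3.44 in males. Gpat4, the main form of the endoplasmic reticulum, made up 22.1% and 32.4% in females and 44.2% and 49.3% in males. Gpat3 made up 3.25% and 8.63% in females and 2.53% and 1.90% in males. The mean Agpat2 share of its family was 65.5% to 70.1% in the 4 groups, with single livers from 58.0% to 73.3%. The share of Gpam in females on chow, 65.0% to 79.0%, did not overlap that in females on statin, 48.8% to 63.5%.

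**Figure D4:**
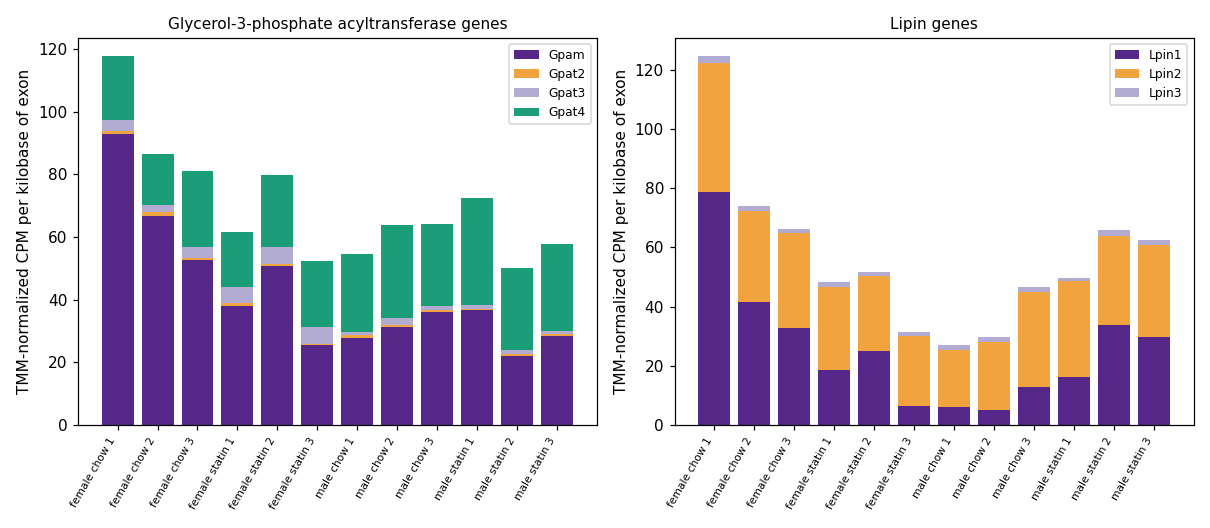
TMM-normalized CPM per kilobase of exon (y axis) stacked by gene for the glycerol-3-phosphate acyltransferases (left) and the lipins (right), with 1 bar per liver on the x axis. The purple Lpin1 segment makes up 49.6% to 63.3% of a bar in females on chow and 20.0% to 48.6% on statin, and 17.4% to 27.7% in males on chow and 32.4% to 51.4% on statin.

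Other enzymes of the same pathway were read from a list of 15 genes, of which 14 were tested. In females on statin edgeR called 0 of them, and 4 had an unadjusted p under 0.05 (10.5% of all genes), all with positive estimates: Plpp3, a lipid phosphate phosphatase, and the 3 that follow. Gk (Gyk), the glycerol kinase, was at 89.9, 108 and 90.0 on chow and 157, 121 and 222 on statin, a log2 difference of 0.80 ± 0.19 (adjusted p = 0.126, edgeR). Gpat3, an acyltransferase of the same step as Gpam, was at 12.3, 7.72 and 12 on chow and at 18.8, 19.2 and 18.8 on statin (0.83 ± 0.25, adjusted p = 0.243, edgeR). Plpp2, another of these phosphatases, differed by 0.52 (adjusted p = 0.219, edgeR). Gk and Gpat3 thus had higher values in the same female statin livers in which Gpam had lower ones. In males 0 of the 14 were called and 1 had an unadjusted p under 0.05, Gpd1, which makes glycerol-3-phosphate, at a log2 difference of -0.60. The list's median was 0.05 in females and -0.03 in males.

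Between the sexes on chow, edgeR called 4 of these 14 genes, beside 10.4% of all genes. Gpat3 (log2 0.97, adjusted p = 0.0331) and Plpp1, a phosphatase (0.48, adjusted p = 0.0394), were higher in females. Gpd1 (-0.87, adjusted p = 0.0415) and Gk (-0.63, adjusted p = 0.0499) were lower in females. On statin Gpat3 alone was called, higher in females by 2.29 (adjusted p = 0.000228, edgeR).

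All 17 genes on a list of other VLDL assembly and secretion genes were tested, and 0 were called by edgeR between statin and chow in either sex. In females 2 had an unadjusted p under 0.05, a share near the 10.5% of all genes. Ces1d, a liver carboxylesterase that takes part in mobilizing stored triglyceride, was at 417, 487 and 718 on chow and 889.7, 877 and 2065 on statin, a log2 difference of 1.24 ± 0.31 (adjusted p = 0.154, edgeR), and A1cf, a cofactor of apolipoprotein B mRNA editing, differed by 0.38. In males 0 had an unadjusted p under 0.05. Sort1, a sorting receptor that binds apolipoprotein B, was called lower in females both on chow (-1.64 ± 0.34, adjusted p = 0.00972, edgeR) and on statin (-1.30, adjusted p = 0.0391, edgeR), opposite in sign to Tm6sf2. It was the single gene called among the 17 in each of those comparisons.

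Feeding state and the hour of the day move several of these genes in liver, so lists for both are set beside Lpin1 and Gpam. Of 12 fed and fasted state genes, 0 were called by edgeR with statin in either sex. In males Pck1, a gene of gluconeogenesis, stood at 1372, 1275 and 2878 on chow and 3459, 2836 and 2244 on statin. Male chow replicate 3, which had the highest Lpin1, Lpin2 and Gpam of the male chow livers, also had the highest Pck1 of them. Of the male statin livers, replicate 1 had the highest Pck1, Lpin2 and Gpam but the lowest Lpin1, 156. In females Fgf21, a hormone gene of fasting, had a log2 difference of 1.14 (adjusted p = 0.217, edgeR), Mlxipl, which encodes a carbohydrate-sensing transcription factor, of -0.59 (adjusted p = 0.261) and Cpt1a, the gate of mitochondrial fatty acid oxidation, of 0.67 (adjusted p = 0.353). Of 11 tested clock genes, 0 were called with statin in either sex, and at an unadjusted p under 0.05 there were 0 in females and 1 in males, Ciart (0.72). Their part in the values of Lpin1, Lpin2 and Gpam was not tested. On chow Pdk4, a fasting-induced kinase of pyruvate dehydrogenase (log2 1.66, adjusted p = 0.00799, edgeR), and Pnpla3, a lipogenic gene (4.79, adjusted p = 0.0126, edgeR), were called higher in females, whereas 0 clock genes were called between the sexes on chow.

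Across livers of the same sex the members did not move as a unit. In the 6 female livers Gpam and Lpin1 had a Pearson r of 0.99 on log2 levels, and in the 6 male livers -0.38. Lpin1 and Lpin2 had r = 0.87 in females and 0.78 in males. The tested genes whose levels were most like those of Lpin1, by the lower of the correlations within the 6 female and the 6 male livers, were Acpp (0.95), Cln8 (0.94) and D430019H16Rik (0.93). For Gpam they were Ttll12 (0.94), Islr (0.93) and Chst14 (0.93), for Dgat2 Slc38a3 (0.99), Cask (0.95) and Anxa6 (0.95), and for Mttp Actr8 (0.94), Hif1a (0.92) and Mogs (0.88). These are descriptions over 6 livers that share diet groups and scaling.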

How the data were processed

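Liver RNA from 12 mice was made into strand-specific libraries after poly(A) selection, although the labels speak of total RNA, and sequenced as paired 50-base reads. The authors deposited raw counts per gene and CPM values, each count over the liver's total. STAR 2.4.1a, HTSeq and GRCm38 stand in the submitters' processing notes. The strand setting of the counting is not given in the sources used here, so reads of genes on opposite strands may be mixed. The count totals are above the read depth in the study's methods, for a reason not given there. The count table is described as TMM-normalized but holds whole numbers, and all values recovered from CPM (100% within 0.05 of a whole read) equalled it. It holds 11968 genes, those with over 1 CPM in 6 or more livers, with no value column unmapped.

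Counts were fitted with edgeR 4.0.16 (R 4.3.3; TMM factors 0.924 to 1.05, common dispersion 0.0380, prior df 4.14), the 12 livers and 4 groups in one fit with no covariate. Tests were two-sided with Benjamini-Hochberg adjustment over 11968 genes. Standard errors were taken from each log2 fold change and its F statistic, and 95% intervals from the t distribution. Alternatives were DESeq2 1.42.0, limma 3.58.1 on log2(CPM + 1), other scalings and filters, each sex alone, a replicate block and each liver left out. The fits were tested on simulated data. Annotation is GENCODE vM21; 11949 of 11968 genes had a symbol and exon length. RefSeq promoters (GRCm38.p6) were listed for 6 of 9 members (Gpam, Agpat2, Lpin1, Lpin2, Mogat1 and Mttp). Python 3.11.15, pandas 2.3.3, numpy 2.4.6, scipy 1.17.1 and matplotlib 3.10.9 were used.

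The members and lists were chosen with earlier results of these data known. All members are named in every comparison, Mogat1 from a fit without the filter. Of each other list up to 3 genes with the smallest p per comparison are named, not all of them here. The comparisons were statin against chow in either sex and females against males on chow. The 3 genes most like Gpam, Lpin1, Dgat2 and Mttp are named too. Plpp3, Igfbp1, Gk between the sexes and the single markers named were chosen after their values were seen. Each sample is a separate liver, and p-values measure the spread between livers.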

Additional observations from a re-analysis of the deposited data

Results flagged for a closer look

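In the lists above, 3 genes had statin livers on opposite sides of the chow livers in the sexes, with no overlap in either. For Lpin1 the female log2 difference minus the male one was -3.34, lower in 3 of 3 female and higher in 3 of 3 male statin livers, and edgeR's test of that difference gave an adjusted p of 0.259. For Ces1d it was 1.57 (adjusted p = 0.319, edgeR). For Fgf21 it was 1.98 (adjusted p = 0.277, edgeR), at 1.81, 1.54 and 0.698 in females on chow, 3.80, 2.84 and 2.34 in females on statin, 2.26, 1.93 and 1.46 in males on chow and 1.19, 1.04 and 0.934 in males on statin. Outlying livers were not looked for in this way, since groups hold 3 livers.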

How the results depend on the processing

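Of 856 values of a member under an alternative, 814 kept their direction and their side of the threshold, 35 changed sign, 3 lost a call and 4 gained one; 26 of the 40 member values never changed sign. Members called stayed at 0 with statin in females and males except for 1 in females with no filter, and for the interaction except for 1 under DESeq2 and 1 with no filter, Lpin1 each time. The genes called in females, 12, became 270 under DESeq2, 148 with no filter, 0 with each sex alone and 0 to 75 with a liver left out; in males, 0 became 4 under DESeq2; for the interaction, 0 became 122 under DESeq2, 103 with no filter and 0 to 14 with a liver left out. On chow, 1250 genes between the sexes became 1946 under DESeq2 and 635 to 1586 with a liver left out, and on statin 751 became 1284 under DESeq2, 500 with the stricter filter and 378 to 743 with a liver left out. With library size alone the genes higher in females went from 713 of 1250 to 565 of 1218 on chow and from 524 of 751 to 356 of 683 on statin, and no member call changed. Same-numbered livers are different mice and their correlations, -0.482 to 0.108, did not pair them; the replicate block gave 5, 0, 0, 901 and 570 genes in females, males, the interaction, chow and statin, and changed no member's call. The sign changes were in values near 0. Dgat2 in males was 0.0081 under DESeq2 and under its size factors, 0.011 with library size alone, 0.012 with the length correction, 0.0059 with each sex alone, 0.0021 without the 10 highest genes, 0.0038 with the stricter filter and -0.092 to 0.062 with a liver left out. With a liver left out, Agpat2, Dgat1, Dgat2 and Mttp ranged from -0.14 to 0.067, -0.13 to 0.016, -0.28 to 0.033 and -0.16 to 0.12 in females. In males Gpam, Agpat2, Dgat1 and Mttp ranged from -0.33 to 0.036, -0.066 to 0.070, -0.0088 to 0.062 and -0.027 to 0.17. For the interaction Agpat2, Dgat2 and Mttp ranged from -0.17 to 0.043, -0.28 to 0.031 and -0.25 to 0.022. Between the sexes Dgat1 on chow ranged from -0.10 to 0.018 and Dgat2 on statin from -0.093 to 0.22. The cause was not tested. Each group held 3 livers, which limits precision.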
